A study of Mus musculus with 40 samples.

Results

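The 38 genes described here encode proteins of the synaptic vesicle, of the machinery that fuses it with the plasma membrane and of its retrieval. They were chosen by name as known components of transmitter release, with earlier results of these data known. All 38 were found among the 47643 genes of the deposited tables. RNA was sequenced from the hippocampus and the frontal cortex of wild-type Swiss Webster mice, an outbred stock, which were germ-free until they were colonized with human stool and which ate standard chow. Stool came from 10 donors, each sampled before (pre-KD) and after (post-KD) starting a ketogenic diet, which is rich in fat and poor in carbohydrate. Each of the 20 stool samples was given to 1 cohort, and tissue of several mice of a cohort, which the study's methods describe as young females, was pooled into 1 library per region, so the spread between mice of a pool cannot be seen. This gave 10 pre-KD and 10 post-KD recipient libraries from each region, and the comparison asks whether the donor's diet went with another transcript level in the recipient's brain.

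At a nerve terminal, vesicles filled with transmitter are held in clusters, tethered at the active zone, primed, and fused when calcium enters. Fusion is driven by SNARE proteins, of which synaptobrevin sits on the vesicle and syntaxin 1 and SNAP-25 on the plasma membrane, and synaptotagmin is the calcium sensor. After fusion NSF and the SNAPs take the SNARE complex apart, and dynamin, endophilin, amphiphysin and synaptojanin retrieve the membrane. Several of these genes carry mutations in inherited epilepsies, and the vesicle protein SV2A is the binding site of the anti-seizure drug levetiracetam.

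Totals lay between 1140756 and 2095352 counts per library, and the 38 genes together took 1.19 to 1.53% of them. A single non-coding transcript, Gm42418, held 8.63 to 18.02% of the counts. The labelled regions were checked against marker genes. Markers of hippocampal neurons summed to 785 to 1297 CPM (counts scaled to a common library size) over 8 genes in the hippocampal and 437 to 787 in the frontal cortical libraries, and 7 markers of cortical neurons to 199 to 538 and 308 to 617 CPM, so neither list separated all libraries. The frontal cortical libraries also held 500.5 to 1102 CPM of 7 striatal markers against 33.03 to 295 in the hippocampus, with the striatal dopamine receptor Drd2 at 0 in every hippocampal library and at a mean of 0.167 CPM in the frontal cortex. The hippocampal libraries held 515 to 4470.3 CPM of 10 choroid plexus markers against 7.32 to 615. Transcripts of 4 Y-linked genes summed to between 0 and 179 CPM by library, although the mice are described as female, and the cause was not tested. A covariate for them left the counts of release genes called between recipients as they were.

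Levels are compared between genes as CPM per kb of the longest coding transcript, scaled by the trimmed mean of M values (TMM), as mean ± SD over the 20 libraries of a region, with the hippocampus first and the frontal cortex second. This scale takes reads to fall along the whole transcript, which holds for the TruSeq kit given by the labels and not for the 3′ kit that the study's resource list also names. The calcium sensor Syt1 was at 406 ± 47.7 and 424 ± 32.5. Snap25, the plasma membrane SNARE, was at 392 ± 70.1 and 447 ± 39.7, and these genes held the first places in both regions. Rab3a, the most abundant small GTPase of synaptic vesicles, followed with 335 ± 52.1 and 350.2 ± 57. At the other end stood Syn3, the least abundant synapsin, at 1.23 ± 1.64 and 1.99 ± 2.16, and Sv2c and Unc13b lay just above it. The plot of levels shows the whole range. By library, Syt1 ran from 1599 to 2444 CPM (median 1923) in the hippocampus and from 1734 to 2372 CPM (median 2021) in the frontal cortex. Snap25 ran from 636 to 1314 CPM (median 798) and from 822 to 1086 CPM (median 959), and Rab3a from 393 to 661 CPM (median 508) and from 426 to 716 CPM (median 555). The ranges of the regions overlapped for each of the 3. In mean CPM, with no division by length, the order differed. Syt11 (1072 and 1053) came before Snap25 (830 and 946). Rab3a (521 and 545) came after Napb (791 and 802), Sv2a (679 and 753) and Cplx2 (656 and 751). Unc13b (38.5 and 30.8) stood above Rab3b (19.9 and 22.1).

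**Figure D1:**
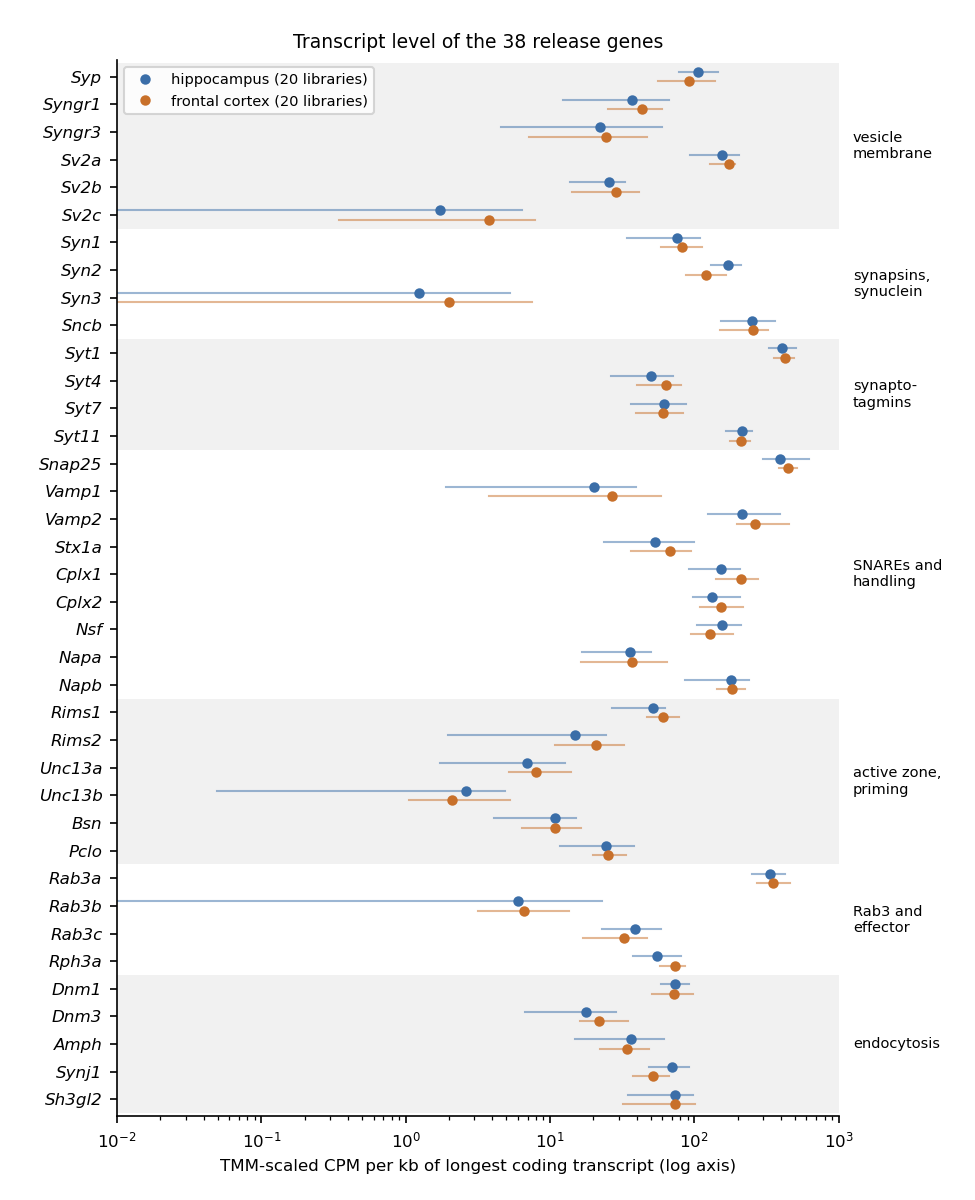
Transcript level of the 38 genes, in TMM-scaled CPM per kb of longest coding transcript on a log axis, grouped by role. Points are means and bars run from the lowest to the highest of 20 libraries per region; bars that reach the left edge start at a library under 0.01. Snap25, Syt1 and Rab3a stand highest and Syn3, Sv2c and Unc13b lowest in both regions.

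Among the vesicle membrane proteins, Sv2a was the most abundant of the SV2 transporter-like proteins, at 157 ± 27.1 and 174 ± 17.7. Sv2b was at 25.5 ± 5.68 and 28.7 ± 6.004, and Sv2c, which is known from the basal ganglia, at 1.75 ± 1.64 and 3.79 ± 1.97. Synaptophysin, Syp, the classic marker of the vesicle membrane, reached 106 ± 18.3 and 91.8 ± 18.1. Its 4-pass relatives of the synaptogyrin family were lower. Syngr1 was at 36.99 ± 11.8 and 43.4 ± 9.70, and Syngr3, which binds the dopamine transporter, at 22.4 ± 13.6 and 24.6 ± 10.3.

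The synapsins are phosphoproteins that tie vesicles into clusters, and Syn2 was the most abundant of the 3, at 171 ± 22.5 and 121 ± 21.4. Syn1, which is X-linked, was at 75.8 ± 20.5 and 81.7 ± 13.5. Sncb, coding for the vesicle-associated protein beta-synuclein, exceeded both on this scale with 253 ± 58.97 and 255 ± 53.4. In CPM, with no division by length, the order against Syn2 was reversed, with mean levels of 341 and 344 for Sncb and 659 and 465 for Syn2. By library, Sncb ran from 208 to 494 CPM (median 323) in the hippocampus and from 205 to 442 CPM (median 348) in the frontal cortex. Among the synaptotagmins, Syt11, a member that does not bind calcium, came after Syt1 at 214 ± 26.4 and 209.8 ± 17.7. Syt7, a slow and high-affinity calcium sensor, was at 62.1 ± 13.95 and 60.9 ± 10.5, and Syt4, which is found on dense-core vesicles, at 50.1 ± 13 and 64.3 ± 12.2.

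Of the vesicle SNAREs, Vamp2 was far above Vamp1, at 215 ± 59.2 and 266 ± 56 against 20.4 ± 10.8 and 27.01 ± 11.9. Stx1a, the syntaxin 1 isoform counted here, was at 53.5 ± 20.2 and 68.1 ± 14.8. The complexins clamp and then promote fusion by binding the assembled complex. Cplx1 was at 154 ± 34.3 and 212 ± 35.1, and Cplx2 at 133 ± 26.8 and 152 ± 25.6. Of the genes that recycle the complex, Napb, the brain form of SNAP, was at 179 ± 32.7 and 182 ± 19.99, and Napa, the general form, at 35.9 ± 10.2 and 37.2 ± 12.4. The ATPase Nsf was at 156 ± 27.2 and 128 ± 20.1.

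Active zone genes organize the site of release. The scaffold Rims1 was at 51.9 ± 7.91 and 61.2 ± 7.84, and Rims2 at 15.01 ± 5.20 and 20.97 ± 5.45. The giant scaffolds Pclo and Bsn, which have the longest coding transcripts of the 38 genes (20084 and 15938 bases), were at 24.4 ± 5.92 and 25.3 ± 3.22, and at 10.9 ± 2.86 and 10.9 ± 2.65. The priming factors of the Munc13 family were the lowest of this class, with Unc13a at 6.95 ± 2.98 and 8.03 ± 2.09, and Unc13b at 2.61 ± 1.29 and 2.08 ± 0.956. Beside Rab3a, the paralogs Rab3c and Rab3b were at 38.7 ± 8.98 and 32.8 ± 7.18, and at 5.97 ± 5.03 and 6.65 ± 2.77. Their effector rabphilin, Rph3a, was at 54.9 ± 10.99 and 73.1 ± 8.87.

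The endocytic genes retrieve the vesicle membrane. Dnm1, the neuronal dynamin that cuts vesicles from the membrane, was at 74 ± 10.7 and 72.04 ± 10.9, and Dnm3 at 17.8 ± 5.87 and 21.98 ± 4.30. The endophilin Sh3gl2, which senses membrane curvature, was at 73.3 ± 14.5 and 73.2 ± 15.3, and amphiphysin, Amph, at 36.3 ± 13.1 and 34.4 ± 7.23. Synj1, the phosphoinositide phosphatase that uncoats retrieved vesicles, was at 69.7 ± 10.9 and 51.8 ± 7.09.

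Promoter sequences are shown for the genes with the smallest adjusted p in each direction of the region comparison, Syn2 and Cplx1, and for Syngr1, which had the smallest p between recipients. RefSeq promoter entries (GRCm38.p6) were found for 31 of the 38 genes, and none was found for Syngr3, Syn3, Vamp2, Rims2, Syt4, Syt7 or Snap25. The 250 bases before the start are given 5′ to 3′ on the strand of the gene, with every GC box (GGGCGG or its complement, the letters bound by Sp1) in capitals. Syn2 lies at chr6:115134652-115134901 on the + strand, Cplx1 at chr5:108550028-108550277 on the - strand and Syngr1 at chr15:80091084-80091333 on the + strand.
Syn2: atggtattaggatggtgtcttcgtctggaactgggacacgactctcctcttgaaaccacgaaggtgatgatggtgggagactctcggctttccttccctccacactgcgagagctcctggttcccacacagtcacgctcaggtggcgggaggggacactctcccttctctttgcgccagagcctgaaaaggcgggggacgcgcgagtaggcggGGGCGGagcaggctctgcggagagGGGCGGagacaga
Cplx1: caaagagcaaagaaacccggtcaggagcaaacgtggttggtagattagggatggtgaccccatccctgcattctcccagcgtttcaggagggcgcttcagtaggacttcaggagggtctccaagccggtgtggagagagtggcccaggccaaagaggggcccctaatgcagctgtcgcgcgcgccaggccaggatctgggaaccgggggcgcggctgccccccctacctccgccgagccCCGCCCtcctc
Syngr1: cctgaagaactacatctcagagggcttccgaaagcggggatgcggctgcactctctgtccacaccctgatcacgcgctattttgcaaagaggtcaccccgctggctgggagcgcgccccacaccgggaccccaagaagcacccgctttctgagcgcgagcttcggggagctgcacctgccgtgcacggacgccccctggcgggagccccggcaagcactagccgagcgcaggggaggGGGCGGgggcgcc
A GC box on either strand was present in 22 of 40 promoter entries of the release genes (55%) and in 32.7% of all 32851 promoters of the same length. The cyclic AMP response element TGACGTCA was found in 2 release gene entries (Sh3gl2 and Syn1) and in 508 of all promoters. These matches describe the letters only.

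The spread between libraries of 1 group set how small a change could be seen. The median coefficient of variation over the 38 genes was 24.2% in pre-KD and 22.9% in post-KD hippocampus, and 18.9% and 17.03% in the frontal cortex. Counting error alone, with reads taken as independent molecules, would give a median of 4.91, 5.11, 4.88 and 4.61% in the same order. Other genes of like level are given for comparison. Among genes of 200 to 500 CPM in pre-KD frontal cortex, the 15 release genes had a median of 16.4% and the 512 other genes 17.7%. In pre-KD hippocampus the order was the other way, with 23.2% against 21.7% at this level and 17.5% against 16.9% over 500 CPM.

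In the hippocampus, no release gene passed the test between post-KD and pre-KD recipients. Of 38 genes, 15 had a higher and 23 a lower fitted level post-KD, with a median log2 fold change of -0.02 against -0.01 over all 17529 genes tested. By edgeR's quasi-likelihood test with Benjamini-Hochberg adjustment 0 of 38 had an adjusted p under 0.05, against 0.0057% of all genes. At an unadjusted p under 0.05 the count was also 0 of 38, where 10.1% of all genes and 3.05% of the 4821 genes averaging at least 50 counts passed, and DESeq2 and limma-voom also gave 0 at either threshold. In bulk tissue, fewer cells of a type and less RNA per cell cannot be told apart here or below.

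The 4 genes with the smallest p in the hippocampus show the size of these differences. Pclo, the active zone scaffold piccolo, ranged from 236 to 768 CPM (median 566) in pre-KD and from 352 to 545 CPM (median 466) in post-KD libraries (log2 fold change -0.18, SE 0.14, p = 0.186, adjusted p = 0.911). Syt11 ranged from 847 to 1242 CPM (median 994) and from 829 to 1269.7 CPM (median 1153), and 3 post-KD libraries lay above all pre-KD libraries (log2 fold change 0.14, SE 0.10, p = 0.188, adjusted p = 0.915). The groups overlapped for both genes, and the value of Pclo lay between -0.29 without donor 5 and -0.09 without donor 8. Rph3a, which links Rab3 to the release site, ranged from 157 to 336 CPM (median 237) and from 178 to 258 CPM (median 212), and was lower post-KD in 9 of 10 donors (log2 fold change -0.20, SE 0.16, p = 0.217, adjusted p = 0.942). Without donor 6 the value of Rph3a was -0.10. Unc13b ranged from 0.727 to 51.1 CPM (median 33.7) and from 9.84 to 71.9 CPM (median 48.1) (log2 fold change 0.48, SE 0.39, p = 0.221, adjusted p = 0.947). Intervals were narrower for the abundant genes. The 95% interval of the log2 fold change was -0.28 to 0.07 for Syt1, -0.15 to 0.30 for Snap25, -0.17 to 0.33 for Rab3a and -0.25 to 0.22 for Syn2. For the scarce genes the intervals were wide, at -2.52 to 2.10 for Syn3 and -2.20 to 0.60 for Sv2c.

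In the frontal cortex, the 2 synaptogyrins had the smallest p of the 38 genes and differed in opposite directions. Syngr1 was lower and Syngr3 higher in post-KD recipients, at an unadjusted p under 0.05 that did not hold after adjustment over all genes. The count of 2 of 38 (5.26%) was below the 9.68% of all 17873 genes tested and near the 5.85% of genes averaging at least 50 counts by edgeR. Some other tools and filters, and a donor block, gave a higher share of the release genes than of all genes. DESeq2 gave 4 of 38 beside 756 of 21708 genes, and limma-voom 5 beside 1071 of 17873. With a stricter filter on low counts edgeR gave 3 beside 407 of 10033, and with the donor as a block 2 beside 548 of 17873. How the count stands to the background thus depended on the tool, filter and block. After adjustment 0 of 38 passed edgeR's test, beside 0.0056% of all genes. Of the 38 genes, 18 had a higher and 20 a lower fitted level post-KD (median log2 fold change -0.03, all genes 0.01). DESeq2 and limma-voom also gave 0 after adjustment.

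**Figure D2:**
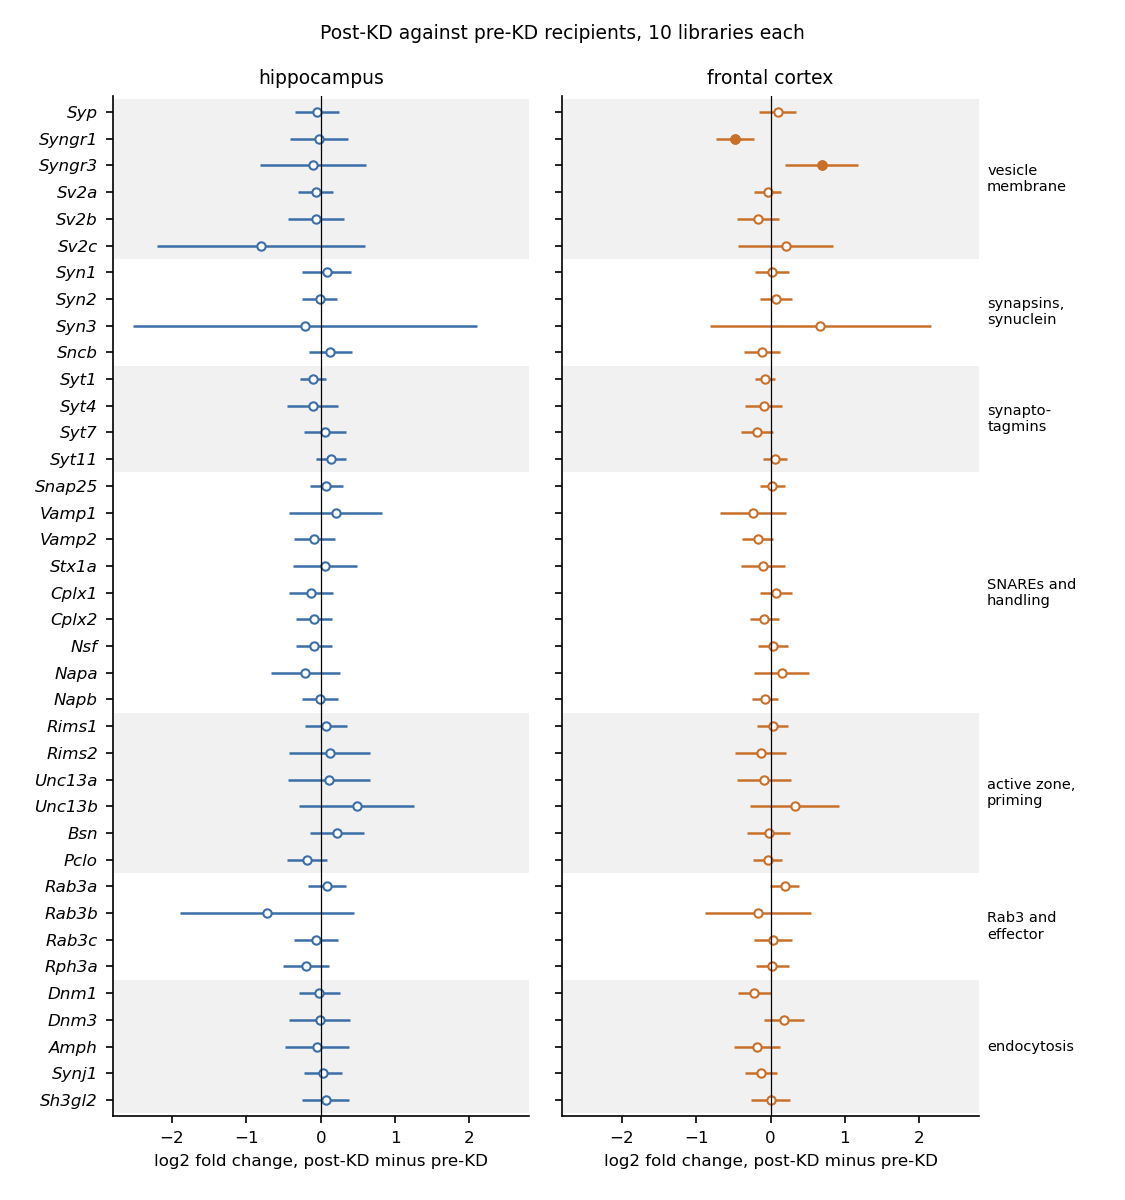
Fitted log2 fold change of each gene, post-KD minus pre-KD, in the hippocampus (left) and the frontal cortex (right). Points are edgeR estimates from 10 against 10 libraries, bars are 95% intervals, and filled points have an unadjusted p under 0.05. All 38 intervals of the hippocampus hold 0, and in the frontal cortex those of Syngr1 and Syngr3 do not.

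Syngr1 (ENSMUSG00000022415, chr15:80091334-80119501, mm10) encodes synaptogyrin 1, a 4-pass protein of the vesicle membrane. In the frontal cortex it ranged from 176 to 251 CPM (median 214) in pre-KD and from 105 to 202 CPM (median 144) in post-KD libraries, or 211 ± 21.9 against 152 ± 32.2 CPM (mean ± SD, n = 10 libraries each). It was lower post-KD in 10 of 10 donors, and 7 of the 10 post-KD libraries lay below every pre-KD library. The log2 fold change was -0.48 (SE 0.13, 95% interval -0.74 to -0.22), with p = 5.67e-04 and an adjusted p of 0.122 by edgeR. With the donor as a block the adjusted p was 0.583 in edgeR and 0.0214 in DESeq2 (log2 fold change -0.49), which was the only alternative that called a release gene in this comparison. Syngr1 overlaps Rpl3, a ribosomal protein gene on the other strand with 15742 counts over all libraries against 10838 of Syngr1, and the strand setting of the counting is not given in the sources used here. The annotated exons share 0 bases, and Rpl3 itself had a log2 fold change of 0.10 (p = 0.493 by edgeR).

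Syngr3 (ENSMUSG00000007021, chr17:24685092-24689955) encodes synaptogyrin 3. In the frontal cortex it ranged from 14.05 to 69.7 CPM (median 35.3) in pre-KD and from 40.2 to 92.2 CPM (median 61.4) in post-KD libraries. The groups overlapped, and 3 post-KD libraries lay above every pre-KD library. Syngr3 was higher post-KD in 8 of 10 donors (log2 fold change 0.69, SE 0.25, p = 0.00761, adjusted p = 0.144 by edgeR). Some markers of other cells also differed at an unadjusted p under 0.05, and their part in the synaptogyrin values was not tested. They were 2 of 3 blood markers tested, with sums of 387 to 1143 CPM pre-KD and 546 to 1374 post-KD. They also included 2 of 6 striatal (500.5 to 1032 and 714 to 1102 CPM), 2 of 8 microglial (144 to 255 and 168 to 286 CPM) and 1 of 5 excitatory neuron markers, and none passed after adjustment by edgeR. The Syngr3 values rest on 18 to 163 counts per library. Over all alternatives to the fit the adjusted p of Syngr3 lay between 0.0943 and 1.

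**Figure D3:**
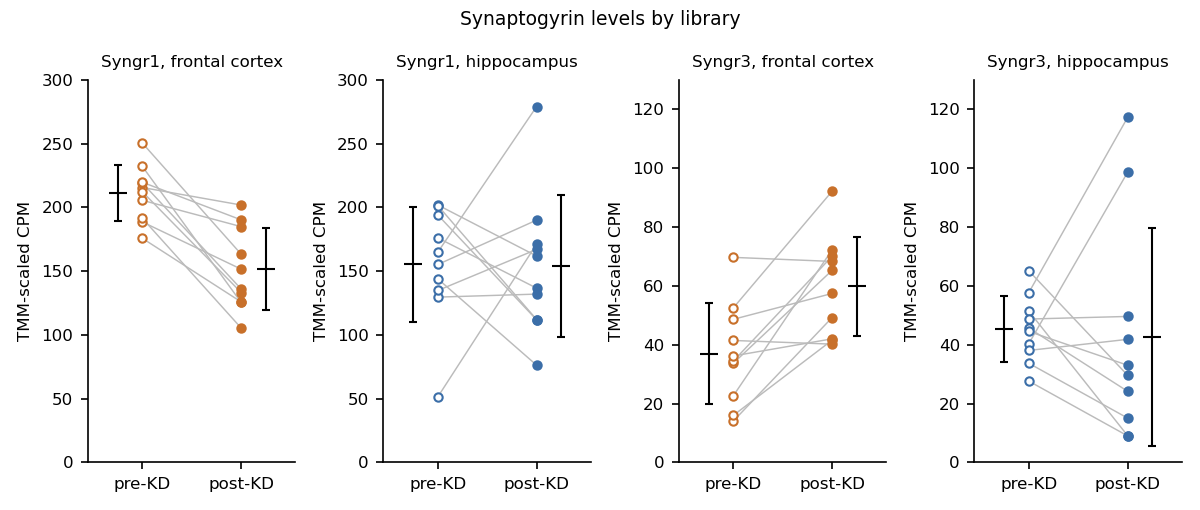
TMM-scaled CPM of Syngr1 and Syngr3 by library. Open points are pre-KD and filled points post-KD libraries, grey lines join the libraries of a donor, and crossbars beside them give the mean and SD of 10 libraries. In the frontal cortex every Syngr1 line falls and most Syngr3 lines climb, while in the hippocampus lines run both ways.

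The 2 genes with the next smallest p in the frontal cortex missed the unadjusted threshold by edgeR, and both passed it in DESeq2 and limma-voom. Dnm1, the neuronal dynamin, ranged from 303 to 451 CPM (median 342) in pre-KD and from 234 to 369.9 CPM (median 304) in post-KD libraries (log2 fold change -0.22, SE 0.11, p = 0.0538, adjusted p = 0.535). Rab3a ranged from 426 to 665 CPM (median 479) and from 464 to 716 CPM (median 580.1) (log2 fold change 0.19, SE 0.10, p = 0.0655, adjusted p = 0.587). The groups overlapped for both, with 5 post-KD libraries below all pre-KD libraries for Dnm1 and 2 above them for Rab3a. By edgeR, Dnm1 also passed with the stricter filter on low counts and without donors 2, 3, 8 or 10, and Rab3a without donors 5 or 7. Intervals of the abundant genes were again narrow, at -0.21 to 0.06 for Syt1, -0.14 to 0.19 for Snap25 and -0.22 to 0.14 for Sv2a, the levetiracetam-binding protein.

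In the hippocampus neither synaptogyrin passed the test. Hippocampal Syngr1 was at 155 ± 45.1 CPM pre-KD and 154 ± 55.7 post-KD, and ranged from 51.4 to 202 CPM (median 160.1) and from 76.2 to 279 CPM (median 149). Hippocampal Syngr3 ranged from 27.6 to 65.1 CPM (median 45.1) and from 9.02 to 117 CPM (median 31.3). Whether the post-KD difference itself differed between regions was tested with a term for each cohort over all 40 libraries. Syngr3 was the 1 of 38 genes with an unadjusted p under 0.05 (difference of log2 fold changes -1.26, SE 0.49, p = 0.0109), beside 2.22% of all 19422 genes tested. Without the cohort block the difference was -0.78 (p = 0.0874) and no release gene passed, beside 1767 of 19422 genes. Striatal markers lay in the same direction in this contrast, with 6 of 6 lower (median -0.78) and 4 at an unadjusted p under 0.05. Of 3 blood markers 2 were lower (median -0.38) and 2 had an unadjusted p under 0.05, as did 1 of 6 endothelial markers, of which 5 were lower. The part of these cells in the difference was not tested. The adjusted p of Syngr3 was 1, and 0 of 38 genes passed the adjusted threshold by edgeR or DESeq2, against 0.0154% of all genes. The difference for Syngr1 was 0.47 (SE 0.24, p = 0.0540, adjusted p = 1). Without donor 7, whose pre-KD hippocampal library was the lowest for Syngr1, that difference was 0.24. The number of genes at an unadjusted p under 0.05 was 4 without donor 4 (Sncb, Sv2c, Syngr1 and Syngr3, beside 448 of 19167 genes), 3 without donor 8 (Sv2c, Syngr1 and Syngr3, beside 387 of 19123) and between 1 and 2 without each of the others.

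The regions of a cohort were compared to give the release genes a contrast within the same pools of mice. Of 38 genes, 3 were higher in the hippocampus (Syn2, Synj1 and Nsf) and 6 in the frontal cortex (Sv2c, Rims2, Cplx1, Rph3a, Syt4 and Vamp2) at an adjusted p under 0.05 by edgeR, in a fit that compares both regions within each of the 20 cohorts. Over all 19422 genes tested the shares were 0.87% and 1.98%. Among genes averaging at least 50 counts 8.53% were called, against 23.7% of the release genes. The median log2 fold change, hippocampus minus frontal cortex, was -0.15 for the 38 genes, -0.17 for all genes and -0.06 for those averaging at least 50 counts. DESeq2 called 12 release genes, 4 higher and 8 lower in the hippocampus, beside 1026 of 23317 genes. With libraries scaled to 10 neuron markers, 7 release genes were called, beside 515 of 19422 genes. Of the 7, 4 were higher in the hippocampus, with Rab3c beside the 3 above. The other 3 were higher in the frontal cortex, without Rims2, Syt4 and Vamp2. With the mean level of the striatal markers as a covariate, an alternative chosen after the data were seen, 0 of 38 release genes and 1 of all genes were called (DESeq2 was not run with it; at an unadjusted p under 0.05 edgeR left 1 release gene, Syn2, at a log2 fold change of 0.57), and Nsf, Rims2 and Rph3a changed sign. The other 6 of the 9 genes called without the covariate kept their direction with it, at 0.46 for Synj1, -0.62 for Syt4, -0.25 for Vamp2, -0.33 for Cplx1 and -0.62 for Sv2c. The striatal sums of the regions do not overlap, so this covariate and the region largely cannot be told apart, and the values below are without it except where it is named. Each region was deposited as its own table, so region and any difference in how the 2 sets of libraries were prepared cannot be told apart.

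**Figure D4:**
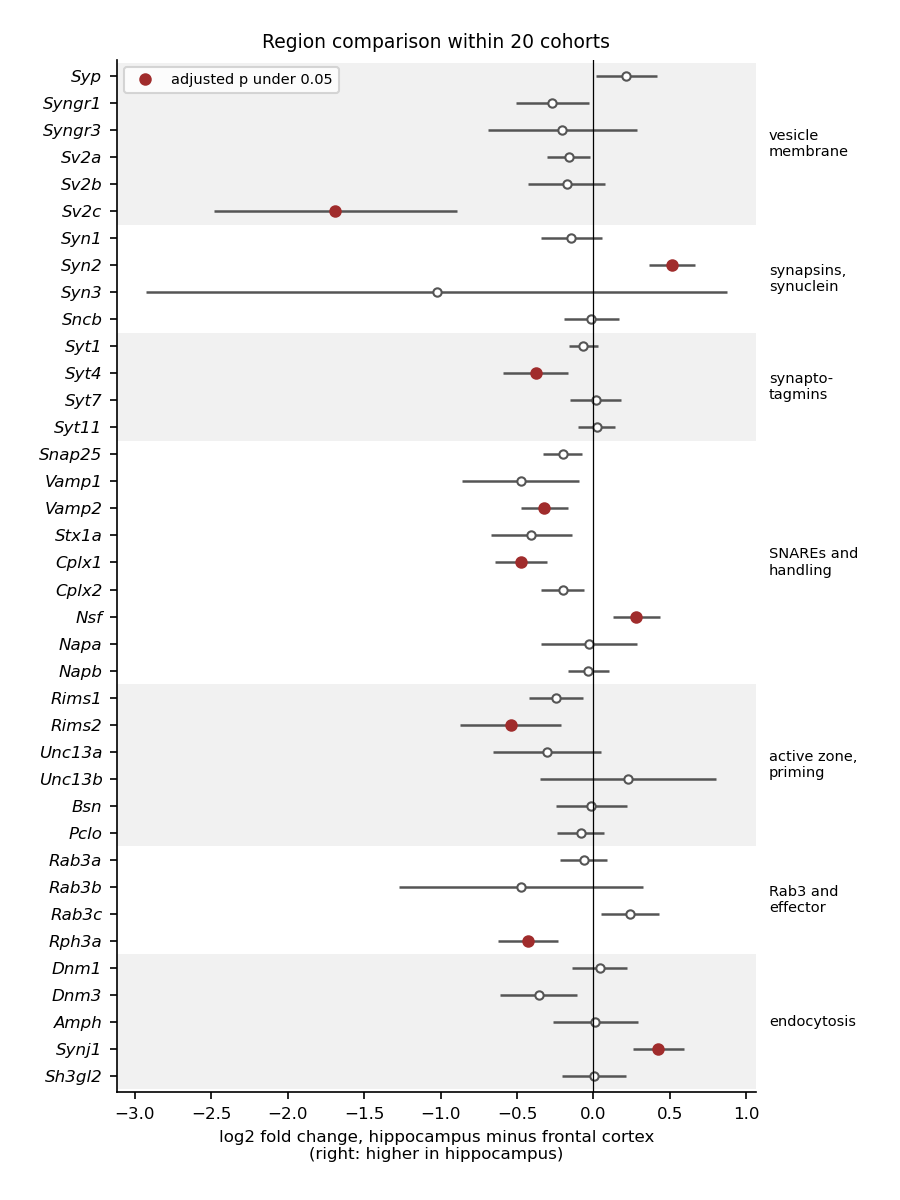
Fitted log2 fold change of each gene, hippocampus minus frontal cortex, from 20 cohorts with both regions. Points are edgeR estimates, bars 95% intervals and filled red points genes with an adjusted p under 0.05. Syn2, Synj1 and Nsf lie to the right of 0, and Sv2c, Rims2, Cplx1, Rph3a, Syt4 and Vamp2 to the left.

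Syn2 (ENSMUSG00000009394, chr6:115134902-115282006), coding for synapsin 2, ranged from 504 to 808 CPM (median 661) in the hippocampus and from 337 to 642 CPM (median 453) in the frontal cortex. It was higher in the hippocampus in 20 of 20 cohorts, and 11 hippocampal libraries lay above every frontal cortical library. The log2 fold change was 0.51 (SE 0.08, adjusted p = 7.58e-09 by edgeR), and Syn2 was the only release gene called within the 10 pre-KD cohorts alone (0.56) as well as within the 10 post-KD cohorts alone (0.46). Its paralogs were not called, with log2 fold changes of -0.15 (adjusted p = 0.689) for Syn1 and -1.03 (adjusted p = 0.780) for Syn3, whose interval of -2.93 to 0.87 is wide.

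Synj1 (ENSMUSG00000022973, chr16:90936092-91011308) ranged from 343 to 654 CPM (median 487) in the hippocampus and from 265 to 471 CPM (median 369) in the frontal cortex. It was higher in the hippocampus in 18 of 20 cohorts (log2 fold change 0.42, SE 0.08, adjusted p = 5.13e-05). The other endocytic genes were not called, and Dnm1, Amph and Sh3gl2 had log2 fold changes of 0.04, 0.01 and 0.00. Dnm3 lay in the other direction from Synj1, at -0.36 (SE 0.13, p = 0.00523, adjusted p = 0.131 by edgeR), with the lower level in the hippocampus in 13 of 20 cohorts and 7 hippocampal libraries below every frontal cortical one. Nsf (ENSMUSG00000034187, chr11:103821782-103954056), the ATPase that separates used SNARE complexes, ranged from 394 to 793 CPM (median 591) in the hippocampus and from 359 to 700.1 CPM (median 473) in the frontal cortex and was higher in the hippocampus in 16 of 20 cohorts (log2 fold change 0.28, SE 0.08, adjusted p = 0.0168). Its call was lost without donors 2, 7 or 9, with an adjusted p of at most 0.0877. Its partners Napa and Napb had log2 fold changes of -0.03 and -0.04.

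Cplx1 (ENSMUSG00000033615, chr5:108518554-108550024), which binds the assembled SNARE complex, ranged from 203 to 452 CPM (median 352) in the hippocampus and from 312 to 603 CPM (median 473) in the frontal cortex. It was lower in the hippocampus in 17 of 20 cohorts, and 7 hippocampal libraries lay below every frontal cortical one (log2 fold change -0.48, SE 0.09, adjusted p = 6.31e-06). Cplx2, its close relative, had a log2 fold change of -0.20 with an adjusted p of 0.119. Vamp2 (ENSMUSG00000020894, chr11:69088490-69092384) ranged from 274 to 869 CPM (median 434) in the hippocampus and from 436 to 1001 CPM (median 571) in the frontal cortex, and 11 hippocampal libraries lay below every frontal cortical one (log2 fold change -0.32, SE 0.08, adjusted p = 0.00310). The call of Vamp2 was lost without donor 7 (adjusted p = 0.0808). The other SNARE genes had negative fold changes that missed the threshold by edgeR, -0.20 for Snap25 (adjusted p = 0.0677), -0.41 for Stx1a (0.0824) and -0.48 for Vamp1 (0.246). Stx1a passed under DESeq2 (adjusted p = 0.0458) and without donors 8 or 9, Snap25 under limma-voom (0.0249) and without donors 6, 7 or 8, and Vamp1 without donor 6 (0.0419). Cplx2 passed without donor 1 (0.0200) or donor 4 (0.0472). Of the other groups, the scaffold Rims1 passed under DESeq2 (0.0413) and limma-voom (0.0302), with a log2 fold change of -0.25 by edgeR, and synaptophysin, Syp, under DESeq2 (0.0451), with 0.21 by edgeR.

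Rph3a (ENSMUSG00000029608, chr5:120940499-121010092) ranged from 157 to 336 CPM (median 216) in the hippocampus and from 241 to 356 CPM (median 311) in the frontal cortex, with 13 hippocampal libraries below every frontal cortical one. It was lower in the hippocampus in 18 of 20 cohorts (log2 fold change -0.43, SE 0.10, adjusted p = 0.00159). Syt4 (ENSMUSG00000024261, chr18:31437808-31447406) ranged from 103 to 279 CPM (median 194) in the hippocampus and from 155 to 317 CPM (median 258) in the frontal cortex (log2 fold change -0.38, SE 0.11, adjusted p = 0.0202), and lost its call without donors 2, 5 or 6 (adjusted p of at most 0.129). The other synaptotagmins had 95% intervals of -0.16 to 0.03 for Syt1, -0.15 to 0.18 for Syt7 and -0.10 to 0.14 for Syt11. Rims2 (ENSMUSG00000037386, chr15:39198261-39684372) ranged from 9.46 to 117 CPM (median 76.8) in the hippocampus and from 51.98 to 156 CPM (median 101) in the frontal cortex (log2 fold change -0.54, SE 0.17, adjusted p = 0.0483). It lay closest to the threshold and lost its call without donors 3, 4, 5, 6, 8 or 10 (adjusted p of at most 0.425), with DESeq2's size factors in edgeR (adjusted p = 0.0778) and with no filter on low counts (adjusted p = 0.0630). Without donor 5 its log2 fold change was -0.36.

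Sv2c (ENSMUSG00000051111, chr13:95954594-96132577) had the largest difference and the fewest reads of the 9. It ranged from 0 to 58.5 CPM (median 15.5) in the hippocampus and from 3.12 to 71.4 CPM (median 32.5) in the frontal cortex, with 0 counts in 3 hippocampal libraries, and was lower in the hippocampus in 16 of 20 cohorts. The log2 fold change was -1.69 (SE 0.41, adjusted p = 0.00237), -1.15 without the cohort terms, -0.96 in the pre-KD cohorts alone (adjusted p = 0.858) and -2.44 in the post-KD cohorts alone (adjusted p = 0.00443). Striatal markers moved with it. All 6 that could be tested were higher in the frontal cortical libraries, Penk with 210.0 ± 46.2 against 25.6 ± 18.9 CPM and Ppp1r1b with 329 ± 67.9 against 63.4 ± 28.7. Under limma-voom the adjusted p of Sv2c was 0.110, of Rims2 0.0710 and of Syt4 0.0563, which ends these calls. With the striatal covariate Sv2c had a log2 fold change of -0.62 (adjusted p = 1). The part of striatal tissue in the difference was not tested.

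**Figure D5:**
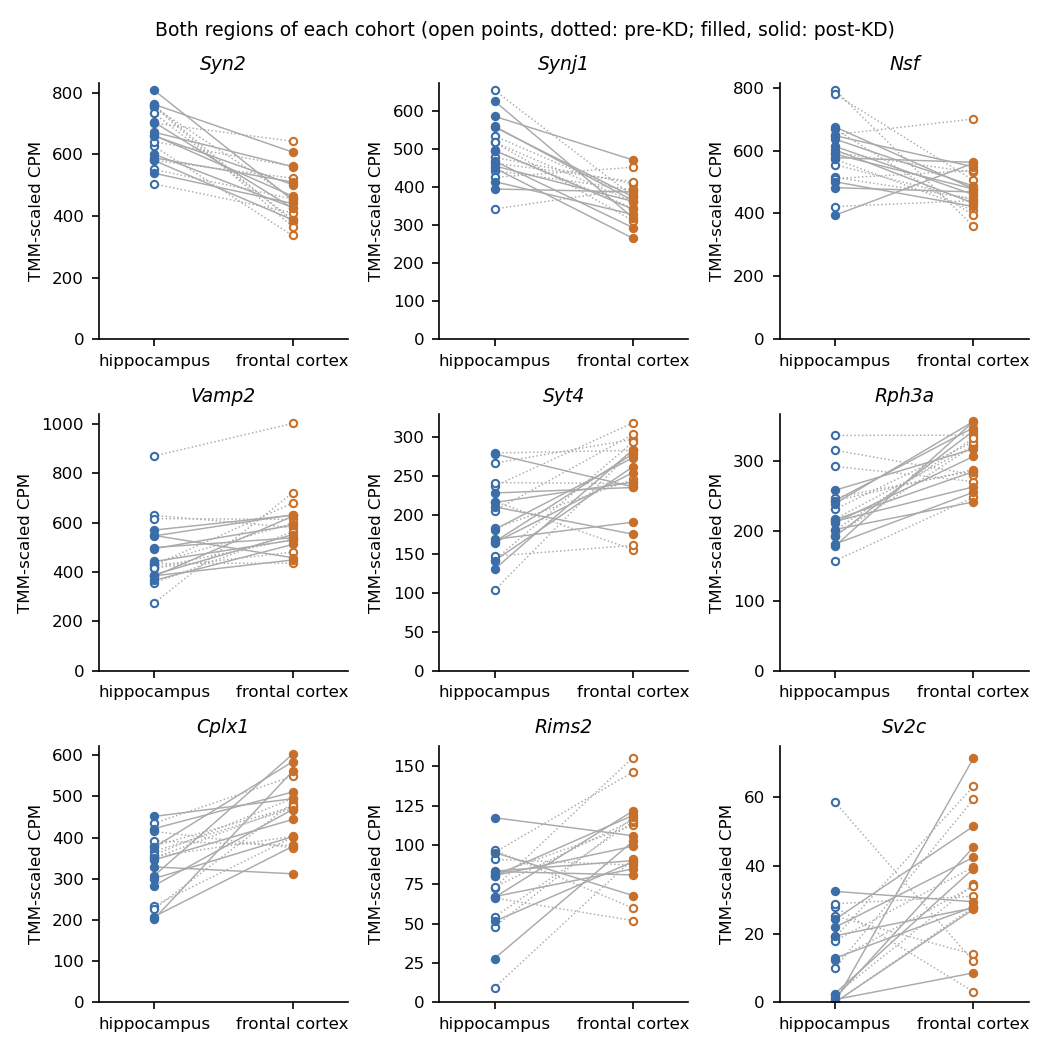
TMM-scaled CPM of the 9 genes called between regions, with a line for each of the 20 cohorts from its hippocampal (left) to its frontal cortical library (right). Open points with dotted lines are pre-KD and filled points with solid lines post-KD cohorts. The Syn2 lines fall in all 20 cohorts, and most lines of Cplx1 and Rph3a climb.

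Other cell markers also moved with the region, and their part in these differences was not tested. Of 10 general neuron markers 3 were called and all 3 were higher in the frontal cortex (Rbfox3, Nefm and Eno2), with sums of 4046 to 5723 CPM in the hippocampus and 4439 to 6144 in the frontal cortex. Of 7 inhibitory neuron markers 2 were called, Gad1 and Gad2, both higher in the frontal cortex, with sums of 455 to 759 and 643 to 842 CPM. Of 10 choroid plexus markers 7 were called, all higher in the hippocampus. Of 8 oligodendrocyte markers 0 were called (5 at an unadjusted p under 0.05 by edgeR). Of 5 excitatory neuron markers 2 were called, 1 in each direction, and of 8 astrocyte markers 1 was called, with the lower level in the hippocampus. All 6 endothelial and all 3 blood markers that could be tested had negative fold changes (medians -0.39 and -0.20), with 3 and 2 at an unadjusted p under 0.05 and 0 called by edgeR, and of 8 microglial markers 0 were called (1 at an unadjusted p under 0.05).

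Other genes of the same pathway, 81 in the tables and 80 tested, were tested in the same fits. Between post-KD and pre-KD recipients 4 of 80 hippocampal and 2 of 80 frontal cortical tests had an unadjusted p under 0.05 by edgeR. The shares were 10.1 and 9.68% of all genes, and 3.05 and 5.85% of those averaging at least 50 counts. After adjustment 0 passed. Between regions 6 of 80 were called, against 2.85% of all genes and 8.53% of those averaging at least 50 counts. Atp6v1a, a subunit of the proton pump that energizes vesicle filling, was higher in the hippocampus (log2 fold change 0.51, adjusted p = 1.08e-08). Syt6, another synaptotagmin (log2 fold change -2.83, adjusted p = 2.06e-07) and Syt2, the calcium sensor of fast inhibitory and brainstem synapses (log2 fold change -1.44, adjusted p = 3.19e-04), were higher in the frontal cortex. The priming factor Unc13c, named after its values were seen, was also higher there (log2 fold change -0.91, adjusted p = 5.21e-06).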

How the data were processed

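RNA of 40 pooled libraries was measured by RNA-seq. The authors deposited raw counts per gene in 1 table per region, and the submitters' processing notes name FastQC 0.11.5, STAR 2.5.2a, SAMtools 1.3, HTSeq 0.6.0 and mm10. The study also names HISAT2 and a 3′ library kit, while the labels give TruSeq. The strand setting and annotation release are not given in the sources used here. Reads that fit several genes are not counted by HTSeq by default, which can lower genes with near copies. Groups were taken from the labels. The members and lists were chosen with earlier results of these data known.

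Counts were tested with edgeR 4.0.16 (R 4.3.3), quasi-likelihood, TMM scaling and a minimum sum of 10 counts per gene in each fit, with Benjamini-Hochberg adjustment over all genes tested and a threshold of 0.05. Recipients were compared within a region without a block, as the study's methods name none. The regions, and the difference in post-KD change between them, were fitted with a term for each of 20 cohorts. The test was checked on simulated data. Those data held no cohort or donor effects, and the difference in post-KD change was not simulated. DESeq2 1.42.0, limma-voom (limma 3.58.1), other filters and scalings, blocks, covariates and leaving out each donor were tried as alternatives. Transcript lengths and overlaps came from GENCODE M21.

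Named with full statistics were the genes with an unadjusted p under 0.05 or the 4 smallest p between recipients, up to 6 called genes in each direction between regions, and for other pathway genes the 2 largest changes in each direction, of which some are not reported here. Donors pair the pre-KD and post-KD cohorts by design. Deviations from the group means correlated between -0.0298 and 0.0273 over the 10 donor pairs of the hippocampus, between -0.0451 and 0.0317 in the frontal cortex, and between -0.0246 and 0.199 over the 20 pairs of regions of a cohort. No 2 libraries held identical values. P-values measure the spread between pools.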

Additional observations from a re-analysis of the deposited data

Results flagged for a closer look

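In 15 of 152 sets of 10 libraries (38 genes in 4 groups), 1 library stood further from the nearest other than Dixon's 95% critical value allows. Chance gives about 1 in 20 such sets, and the genes of 1 library are not independent. All values are TMM-scaled CPM, and the test covers single libraries only.

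In hippocampus pre-KD libraries, Syngr1 was lowest in donor 7, at 51.4 against 129.7 in the next library. Sv2c was highest in donor 9, at 58.5 against 28.8 in the next library. Syn3 was highest in donor 5, at 21.1 against 11.1 in the next library. Rab3b was highest in donor 9, at 76.3 against 35.6 in the next library. In hippocampus post-KD libraries, Syn3 was highest in donor 10, at 20.6 against 8.69 in the next library. Snap25 was highest in donor 8, at 1314 against 966 in the next library. Bsn was lowest in donor 5, at 65.6 against 159 in the next library. In frontal cortex pre-KD libraries, Syp was highest in donor 8, at 363 against 261 in the next library. Vamp1 was highest in donor 1, at 177 against 105 in the next library. Vamp2 was highest in donor 8, at 1001 against 720.3 in the next library. Nsf was highest in donor 1, at 700.1 against 537 in the next library. Napa was highest in donor 1, at 147 against 96.8 in the next library. Unc13a was highest in donor 1, at 144 against 97.2 in the next library. In frontal cortex post-KD libraries, Rims1 was highest in donor 4, at 509 against 429 in the next library. Unc13b was highest in donor 9, at 78.4 against 47.4 in the next library.

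Of the 6 sets in pre-KD frontal cortex, 4 belong to the library of donor 1 (Vamp1, Nsf, Napa and Unc13a) and 2 to that of donor 8 (Syp and Vamp2). The test takes each gene alone and does not show a library that is low in many genes. The pre-KD hippocampal library of donor 5 was the lowest of its group for Sv2a (407), Napb (378), Pclo (236), Rims1 (173) and Rph3a (157). It was the highest for Nsf (793) and Amph (197). That of donor 7 was the lowest for Vamp2 (274), Syt7 (240), Cplx1 (226) and Syn1 (111), and the highest for Unc13a (111). The cause of the flags and of these values was not tested.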

How the results depend on the processing

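Of 512 values and counts under the alternatives, 449 neither changed direction, gained or lost a call, nor moved beyond the spread between replicates or, for counts, the margin set for them. The 3 that changed sign came with the striatal covariate of the region comparison, chosen after the data were seen, with log2 fold changes of 0.12 for Rims2, 0.16 for Rph3a and -0.047 for Nsf, and 0 release genes called. DESeq2 called 12 release genes between regions. In fits of fewer samples, 1 release gene was called between regions in the pre-KD cohorts alone, beside 193 of 17687 genes. In the post-KD cohorts alone 5 were called, beside 251 of 17756. With 1 donor left out 7 to 10 were called, beside 448 to 555 genes. In the frontal cortex the release genes with an unadjusted p under 0.05 numbered 4 in DESeq2 and 5 in limma-voom. Without 1 donor they numbered 2 to 4, the most without donor 10, beside 1719 of 17633 genes. In the hippocampus they numbered 0 to 1 (Pclo without donor 5, beside 1665 of 17320 genes). For the difference between regions they numbered 2 in DESeq2, beside 948 of 23317 genes, and 1 to 4 without 1 donor. With Gm42418 left out of the counts and of the library sizes, CPM is taken over fewer counts. The mean summed level of the 38 genes was then 15945 CPM in pre-KD and 15736 in post-KD hippocampus, beside 13791 and 13700 with it. In the frontal cortex it was 16601 and 16253, beside 14391 and 14114. The cause of the other shifts was not tested.

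With the donor as a replicate block, 2 frontal cortical release genes had an unadjusted p under 0.05 by edgeR, beside 548 of 17873 genes. In the hippocampus 0 did, beside 348 of 17529. In DESeq2 with the block, 4 frontal cortical and 0 hippocampal release genes passed, beside 1093 of 21708 and 927 of 20964 genes. After adjustment 1 was called (Syngr1), beside 12 genes in the frontal cortex. Without the cohort block 9 release genes were called between regions, beside 1935 of 19422 genes. For the difference in post-KD change 0 had an unadjusted p under 0.05, beside 1767 of 19422. The block changed no other call of a release gene.

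Counts over all genes moved more. Between recipients 1 gene was called in the hippocampus, 1291 without a filter on low counts and 0 in DESeq2. In the frontal cortex 1 gene was called, 2 in DESeq2, 3 in limma-voom, 3 with the block and 12 with the block in DESeq2. Between regions 554 genes were called, 1026 in DESeq2, 1935 without the block, 193 and 251 in the pre-KD and post-KD cohorts alone and 1 with the striatal covariate. For the difference in post-KD change, 3 were called, 348 without the block and 0 in DESeq2. In pre-KD hippocampus the spread of Syn3, Sv2c and Unc13b between libraries (coefficients of variation of 132, 83.1 and 42.5%) stood beside a counting error, for independent reads, of 34.4, 17.6 and 14%.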
